A study of Arabidopsis thaliana with 24 samples.

Results

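The change of total RNA under NaCl was compared between 2 genotypes of Arabidopsis thaliana, wild-type Col-0 and the mutant dcp5-1, as the difference of their responses. Members are the 12 total RNA libraries of 24 in the series, taken as the table columns without the suffix IP, which the table does not define. The other 12 hold polysomal RNA, mixed from fractions of a sucrose gradient running from 10 to 50%, and serve here for 1 comparison. Seedlings raised on MS agar to an age of 5 days rested in liquid medium for 30 min, and 150 mM NaCl in that medium then acted on them for 0 min (T0) or 15 min (T15). The 4 groups of 3 libraries were Col-0 at T0, Col-0 at T15, dcp5-1 at T0 and dcp5-1 at T15. A group kept for 15 min in plain medium was not part of the libraries, so a response cannot be told apart from an effect of transfer, handling or elapsed time. The mutant is represented by 1 allele, and no complemented line was among the libraries. The ecotype labels of the dcp5-1 samples change from sample to sample, so they do not give 1 background for the mutant. Whole seedlings were used, and the labels do not say whether the 3 samples of a group came from separate cultures, so the spread between them may be technical.

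DCP5 is an RNA-binding protein of the LSM14 (Scd6) family and part of the decapping machinery. DCP2 removes the 5′ cap of a messenger, DCP1 and the scaffold VARICOSE activate it, and the exonuclease XRN4 then degrades the body of the RNA. DCP5 gathers with these proteins in cytoplasmic processing bodies, where messengers can be held untranslated or decapped, and it is needed for the storage and later use of seed messengers. A level in total RNA is the balance of synthesis and decay, and neither was measured here.

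The values are FPKM, by definition fragments scaled to transcript length and library size, though how these were scaled between libraries is not given. A response is the mean of log2(FPKM + 1) at T15 minus that at T0. The difference of responses is the dcp5-1 response minus the Col-0 response. It is positive where dcp5-1 fell less, rose more or moved up while Col-0 moved down. A gene is called at an adjusted p below 0.05 (limma, Benjamini-Hochberg over 20964 genes), errors of log2 values are standard errors of the fit to all 24 libraries unless stated. On this scale the added 1 shrinks the response of a low gene, so a difference of responses can be understated or overstated where levels are low. The spacing of low values corresponded to about 12210000 to 15770000 fragments per library, if the values were not rescaled between libraries. In each, 19373 to 19579 genes reached 1 FPKM. Chloroplast-encoded genes took 42.4 to 83.6% of the summed FPKM of a library. The median SD within a group was 0.121 on the log2 scale in Col-0 at T0 and 0.0795 to 0.0816 in the other 3 groups.

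The DCP5 transcript checked the labels. DCP5 (AT1G26110, chr1:9024341-9027955, minus strand in TAIR10.1) stood at 48.5, 51.7 and 52.1 FPKM in Col-0 at T0 and at 77.1, 76.8 and 77.2 FPKM at T15. In dcp5-1 it stood at 13, 13 and 13.2 FPKM at T0 and at 16.7, 16.8 and 17 FPKM at T15. The mutant groups lay far below the wild-type groups, at 25.7% and 21.9% of the Col-0 mean, and within each genotype all T15 libraries lay above all T0 libraries. The remaining transcript rose less in dcp5-1, with a difference of responses of -0.25 ± 0.059 (adjusted p = 0.00381).

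Of 20964 genes tested, 5283 (25.2%) had a called difference of responses, positive for 3535 (16.9%) and negative for 1748 (8.34%). The positive side also held more of the large differences, 242 genes (1.15%) of at least 2-fold against 14 (0.0668%) on the negative side. The 2 responses were made from separate libraries, each of which also enters the difference: 13763 genes (65.7%) changed in Col-0, with 6963 (33.2%) higher at T15 and 6800 (32.4%) lower, and 11684 (55.7%) changed in dcp5-1, 6070 (29.0%) higher and 5614 (26.8%) lower. In both genotypes 4806 genes rose and 4663 fell, whereas 208 fell in Col-0 and rose in dcp5-1 and 70 rose in Col-0 and fell in dcp5-1. The median difference was 0.62 over those 208 genes and -0.54 over those 70, with signs fixed in advance by the choice of opposite responses. Of the 4663 genes that fell in both, 1766 had a called difference, against 5283 of 20964 among all genes. The median over the 4663 was 0.22. Col-0 responses ran over a wider range, from -1.24 to 0.73 between the 5th and 95th percentiles, against -0.83 to 0.68 in dcp5-1.

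The balance of directions depended on how libraries were scaled. The median difference over all genes was 0.02, and -0.17 when each library was scaled to the same amount of fragments from nuclear transcripts, a scaling added after the data were seen. Under it 1774 genes were called positive and 5690 negative. Scaling to the sum of nuclear FPKM put the median at -0.34 and left 4 positive and 2 negative calls. The share of that sum held by genes under 300 nt varied from 13.4 to 66.9% between libraries. Directions below are those of the deposited scale. On it, factors that equalise the median gene between libraries (median of ratios) were 0.9919 to 1.009 in total RNA. The median gene thus stood at nearly the same level in each of these libraries as deposited, whether or not the authors had set it so. Medians of gene groups below are to be read beside those of all genes in the same setting. These were 0.02 as deposited, -0.17 under nuclear-fragment scaling and -0.34 under nuclear FPKM-sum scaling.

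**Figure D1:**
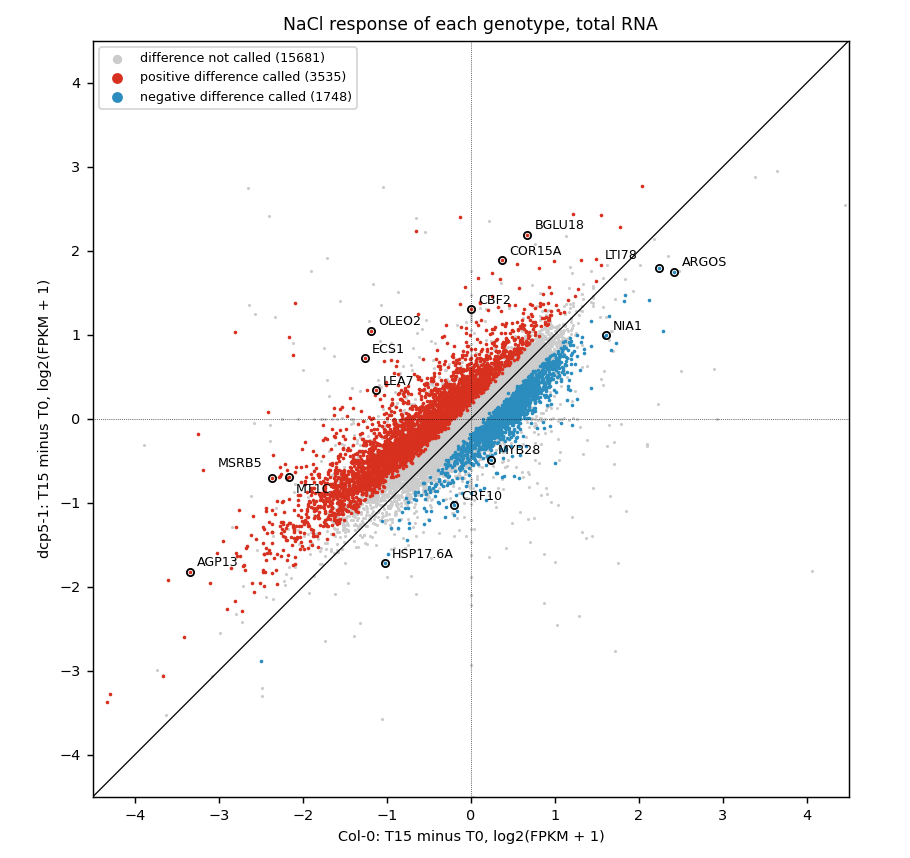
Response of each of 20964 genes to NaCl in total RNA, as T15 minus T0 on the log2(FPKM + 1) scale, in Col-0 (x axis) and in dcp5-1 (y axis). Red and blue points are the 3535 positive and 1748 negative called differences, which lie above and below the line of equal response, and 19 genes fall outside the axes. Circles mark named genes, with ECS1, LEA7 and OLEO2 in the corner where Col-0 fell and dcp5-1 rose.

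ECS1, LEA7 and IRT1 moved in opposite directions in the genotypes. ECS1 (AT1G31580, chr1:11310997-11311989, plus strand), a short 2-exon gene, stood at 523, 633 and 633 FPKM in Col-0 at T0 and at 253, 253 and 236 FPKM at T15, while dcp5-1 went from 359, 373 and 355 FPKM to 611, 584 and 594 FPKM. No library of one time overlapped the other time in either genotype, and the order of the genotypes turned, the mutant mean being 60.7% of Col-0 at T0 and 241% at T15. The responses were -1.26 ± 0.090 and 0.72 ± 0.090, and their difference was 1.98 ± 0.13 (adjusted p = 1.95e-09), the largest positive one among nuclear genes with a symbol, a transcript of at least 300 nt and a mean of at least 10 FPKM. LEA7 (AT1G52690), of the late embryogenesis abundant proteins that protect other proteins in drying cells, stood at 27.8, 28.1 and 24.5 FPKM in Col-0 at T0 and at 9.59, 12.1 and 13.6 FPKM at T15. In dcp5-1 it stood at 15.6, 18.1 and 18.4 FPKM and then at 22.4, 22.9 and 21.3 FPKM, so all mutant T15 libraries lay above all mutant T0 libraries while the wild type did the reverse (difference 1.47 ± 0.15, adjusted p = 7.4e-07). IRT1 (AT4G19690), the iron uptake transporter of the root epidermis, fell in Col-0 from 8.7, 9.97 and 10.0 FPKM to 3.31, 6.01 and 3.68 FPKM. It rose in dcp5-1 from 13.5, 15.1 and 11.5 FPKM to 17.3, 16.7 and 19.6 FPKM, with a difference of 1.42 ± 0.20 (adjusted p = 3.1e-05). In whole seedlings, fewer cells of a type and less RNA of a gene per cell cannot be told apart.

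BGLU18 and COR15A rose in both genotypes, and by more in the mutant. BGLU18 (AT1G52400), a beta-glucosidase of ER bodies that releases abscisic acid (ABA) from its glucose ester, went from 20.3, 21.4 and 21.5 FPKM to 32.8, 34.6 and 34.8 FPKM in Col-0. In dcp5-1 it went from 4.22, 4.84 and 4.81 FPKM to 23.8, 26.2 and 24 FPKM, a ratio of the means of 5.34 against 1.62 in Col-0. The mutant started far below the wild type and stayed below it at T15 (difference 1.52 ± 0.069, adjusted p = 8.58e-12). COR15A (AT2G42540), a chloroplast protein that shields membranes during freezing, stood in Col-0 at 14.4, 19.4 and 20.0 FPKM and then at 25.2, 23.4 and 21.3 FPKM. In dcp5-1 it stood at 13.1, 12.6 and 10.9 FPKM and then at 41.1, 49.4 and 53 FPKM, above every Col-0 library at T15 (difference 1.51 ± 0.18, adjusted p = 6.26e-06). BCAT4 (AT3G19710), which starts the chain elongation of methionine for glucosinolates, overlapped between the times in Col-0, at 14.2, 16.7 and 16.4 FPKM and 14.3, 14.1 and 14.6 FPKM. In dcp5-1 it rose from 7.29, 7.96 and 7.36 FPKM to 18.5, 21.8 and 22.7 FPKM (difference 1.49 ± 0.10, adjusted p = 4.11e-09).

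Other large positive differences came from genes that fell in both genotypes, but further in Col-0. MSRB5 (AT4G04830), a methionine sulfoxide reductase that repairs oxidised methionine, fell in Col-0 from 206, 249.9 and 219 FPKM to 41.6, 38.2 and 48.8 FPKM. In dcp5-1 it fell from 122, 135 and 131 FPKM to 78.1, 75.3 and 83.3 FPKM, so the mutant was lower at T0 and higher at T15 than the wild type (difference 1.66 ± 0.11, adjusted p = 2.67e-09). AGP13 (AT4G26320), a small cell wall arabinogalactan peptide, fell to 0.093 of its T0 mean in Col-0, from 161, 210.0 and 198 FPKM to 18.6, 17.3 and 17 FPKM. In dcp5-1 it fell to 0.276 of its T0 mean, from 114, 117 and 127 FPKM to 32.7, 31.9 and 34.3 FPKM (difference 1.52 ± 0.14, adjusted p = 3.2e-07). The related AGP14 (AT5G56540) started at like levels, 237 ± 37.8 FPKM in Col-0 and 227 ± 5.22 FPKM in dcp5-1 (mean ± SD, n = 3), and ended at 33.1 ± 3.19 and 92.7 ± 7.9 FPKM. Its difference was 1.51 ± 0.15 (adjusted p = 4.56e-07). AIR1 (AT4G12550), induced by auxin in root cultures, metallothionein MT1C (AT1G07610), which binds metals, and the precursor gene of the microRNA miR163 (MIR163, AT1G66725) showed the same order, with differences of 1.5, 1.48 and 1.48. The MIR163 transcript is 331 nt long, and its T15 levels in Col-0 were 6.41, 11 and 9.57 FPKM against 15.7, 15.1 and 15.7 FPKM in dcp5-1.

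**Figure D2:**
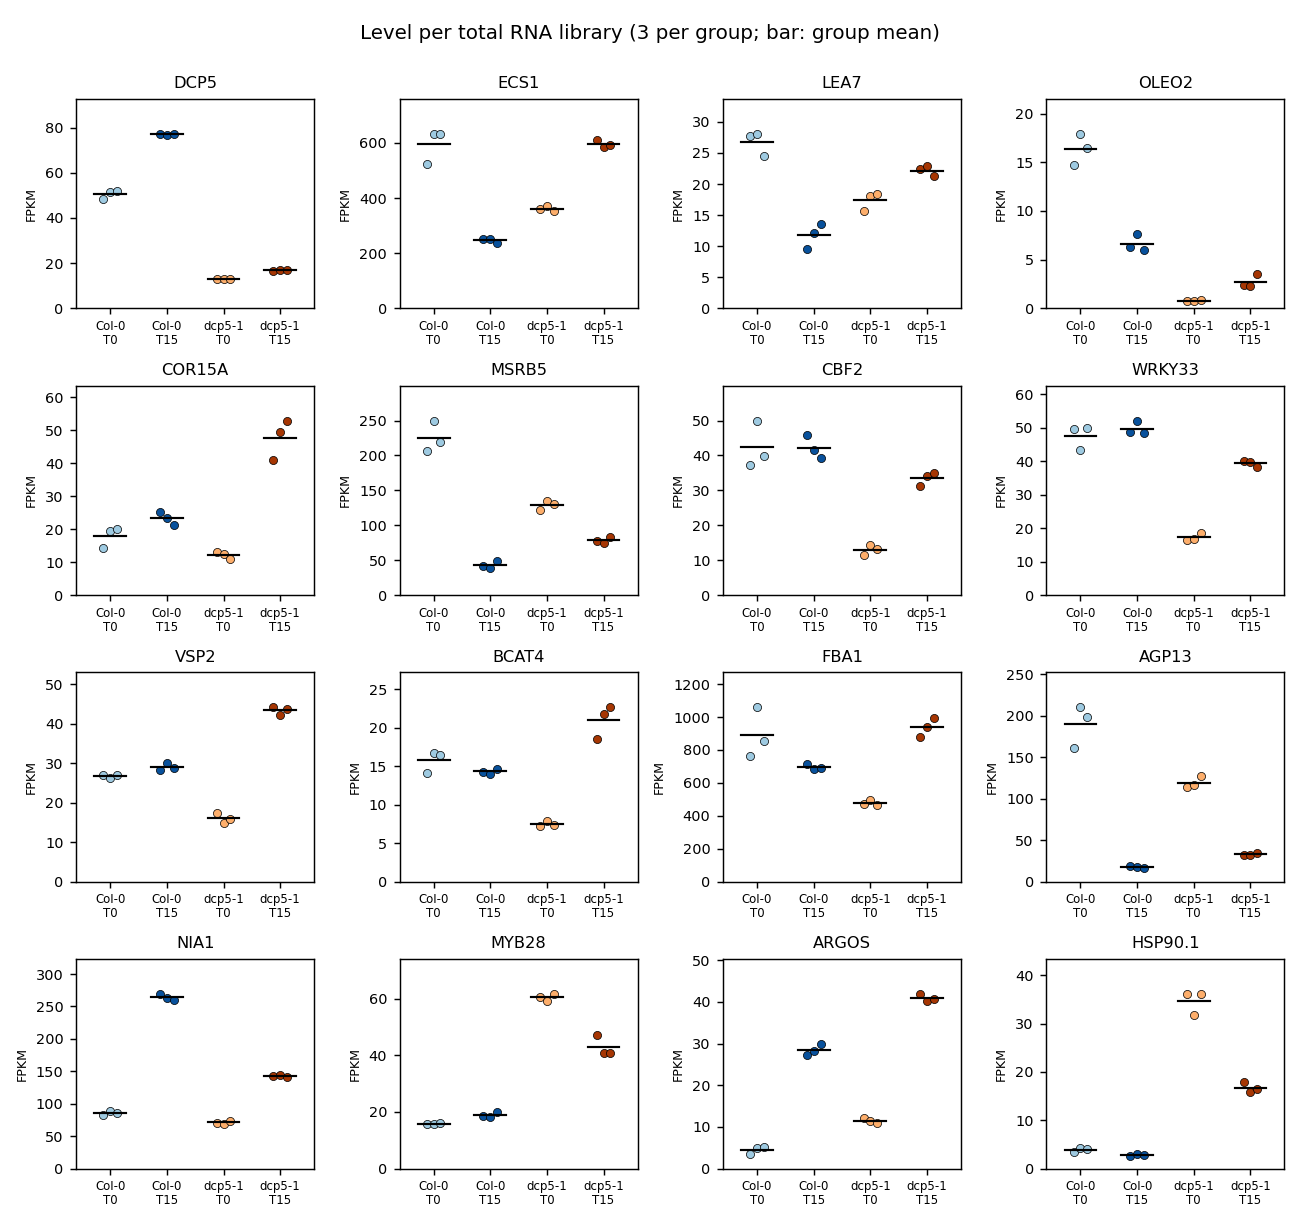
Level of 16 genes in each of the 12 total RNA libraries, in FPKM on linear axes from 0, with points for libraries and bars for the means of 3. ECS1, LEA7 and OLEO2 go down in Col-0 and up in dcp5-1, CBF2, WRKY33, VSP2 and BCAT4 had no called response in Col-0 and are higher at T15 in dcp5-1, and NIA1 reaches 269, 264 and 261 FPKM in Col-0 at T15 but 142, 144 and 142 FPKM in dcp5-1.

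Negative differences were smaller, and the largest under the same conditions was that of CRF10. CRF10 (AT1G68550), a transcription factor of the AP2/ERF family, stood in Col-0 at 11.4, 10.0 and 10.2 FPKM and then at 9.86, 8.83 and 8.48 FPKM, and fell in dcp5-1 from 16.6, 16.5 and 15.3 FPKM to 7.69, 7.05 and 7.45 FPKM. The mutant went from above the wild type to below it (difference -0.83 ± 0.10, adjusted p = 6.34e-06). NIA1 (AT1G77760), a nitrate reductase, rose in both, in Col-0 from 83.2, 89.5 and 85.8 FPKM to 269, 264 and 261 FPKM and in dcp5-1 from 70.6, 68.6 and 73.9 FPKM to 142, 144 and 142 FPKM. The T15 means were 3.07 and 2.01 times the T0 means (difference -0.61 ± 0.053, adjusted p = 7.19e-08). ARGOS (AT3G59900), an organ-size gene, likewise rose 6.24-fold in Col-0 and 3.57-fold in dcp5-1, where its T0 level was already higher, 11.5 ± 0.58 against 4.55 ± 0.997 FPKM (difference -0.67 ± 0.16, adjusted p = 0.00437). RWP1 (AT5G41040), an acyltransferase of suberin synthesis, rose from 16.1 ± 0.678 to 30.6 ± 1.71 FPKM in Col-0 and from 9.99 ± 1.02 to 12.3 ± 0.789 FPKM in dcp5-1 (difference -0.61 ± 0.098).

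BCAT-2, MYB28, PPAN and MIOX2 rose in Col-0 and fell in dcp5-1. MYB28 (AT5G61420), a master regulator of methionine-derived glucosinolates, went from 15.7, 15.6 and 16.1 FPKM to 18.4, 18.1 and 19.9 FPKM in Col-0. In dcp5-1 it went from 60.4, 59.3 and 61.6 FPKM to 47.2, 40.8 and 40.7 FPKM, above the wild type at both times (384% and 228% of its mean; difference -0.73 ± 0.084, adjusted p = 2.98e-06). BCAT-2 (AT1G10070), an aminotransferase of branched-chain amino acid breakdown, rose in Col-0 from 20.0, 16.9 and 19.6 FPKM to 27.4, 31.6 and 28.9 FPKM. In dcp5-1 its libraries overlapped between the times, at 6.78, 7.17 and 6.02 FPKM and 5.33, 4.99 and 6.69 FPKM (difference -0.82 ± 0.12, adjusted p = 3.89e-05). PPAN (AT5G61770), whose yeast relative acts in ribosome assembly, rose from 9.27 ± 0.542 to 12.6 ± 0.103 FPKM in Col-0 and fell from 14.8 ± 0.894 to 12.1 ± 0.407 FPKM in dcp5-1 (difference -0.67 ± 0.084). MIOX2 (AT2G19800), a myo-inositol oxygenase that makes glucuronic acid, had a difference of -0.66 ± 0.070 with mutant levels at 36.3% and 22.7% of Col-0. UMAMIT33 (AT4G28040), of a family of amino acid transporters, and GSTF7 (AT1G02920), a glutathione transferase, fell in both and further in dcp5-1 (-0.64 ± 0.12 and -0.63 ± 0.079).

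Of 9 genes of jasmonate synthesis and response, 1 rose and 3 fell in Col-0, whereas 6 rose and 2 fell in dcp5-1. The difference was positive for 7 (77.8%) and negative for none in limma (0 at an unadjusted p under 0.05), against 16.9% and 8.34% of all genes, and the median was 0.50 against 0.02 over all genes (0.10 and -0.34 under nuclear FPKM-sum scaling). AOC2 (AT3G25770), an allene oxide cyclase, stood in Col-0 at 61.5, 71.1 and 69.9 FPKM and then at 71.5, 71 and 75.5 FPKM, overlapping between the times. In dcp5-1 it rose from 32.2, 28.3 and 32.3 FPKM to 83.6, 78.2 and 86.1 FPKM (difference 1.28 ± 0.080, adjusted p = 1.23e-09). VSP2 (AT5G24770), a storage protein induced by jasmonate, stood at 27.1, 26.3 and 27.1 FPKM and then at 28.3, 29.9 and 28.7 FPKM in Col-0, a change of 0.11 ± 0.050 that did not pass the test (adjusted p = 0.0661). In dcp5-1 it rose from 17.5, 14.9 and 16 FPKM to 44.1, 42.1 and 43.8 FPKM (difference 1.27 ± 0.070, adjusted p = 2.57e-10). The synthesis genes AOS and LOX2 had differences of 0.82 ± 0.11 and 0.36 ± 0.069, while those of OPR3 and LOX3, -0.13 ± 0.079 and 0.11 ± 0.061, were not called. 

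Of 21 glucosinolate, myrosinase and ER body genes 15 (71.4%) were positive and 3 (14.3%) negative, against 16.9% and 8.34% of all genes. MYB28 was among the negative ones, and the group median was 0.36 (-0.06 under nuclear FPKM-sum scaling). The median response was 0.10 in Col-0 and 0.49 in dcp5-1. CYP79F1 (AT1G16410) and CYP83A1 (AT4G13770), which make the core of these glucosinolates, rose from 2.63 ± 0.307 to 10.4 ± 0.493 FPKM and from 21.2 ± 0.584 to 59.9 ± 1.45 FPKM in dcp5-1. In Col-0 they rose from 3.79 ± 0.131 to 5.08 ± 0.172 FPKM and from 22.6 ± 3.67 to 26.9 ± 1.71 FPKM, so the differences were 1.31 ± 0.094 and 1.2 ± 0.10. MAM1 (AT5G23010), of methionine chain elongation, stood at 25.9, 26.3 and 24.2 FPKM and then at 27.1, 29.4 and 26.4 FPKM in Col-0, not called, and rose from 11.5, 12.4 and 10.8 FPKM to 27.2, 26.5 and 28 FPKM in dcp5-1 (difference 1.06 ± 0.072, adjusted p = 2.67e-09). The ER body glucosidase PYK10 (AT3G09260) fell in Col-0 from 1729 ± 138 to 1573 ± 51.8 FPKM and rose in dcp5-1 from 2169.5 ± 34.2 to 3282 ± 28.5 FPKM (difference 0.73 ± 0.070). ESM1 (AT3G14210), which steers glucosinolate breakdown towards isothiocyanates, was negative (-0.53 ± 0.10), and its level set the genotypes apart at both times: 5.15, 5.57 and 4.13 FPKM in Col-0 and 97.5, 98.1 and 104 FPKM in dcp5-1 at T0, and 9.61, 9.7 and 10.5 and 131, 121 and 133 FPKM at T15.

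Of 27 tested ABA signalling and osmotic stress genes, 13 (48.1%) were positive and LTI78 alone (3.7%) negative, against 16.9% and 8.34% of all genes. The median was 0.31 (-0.12 under nuclear FPKM-sum scaling), with median responses of -0.01 in Col-0 and 0.04 in dcp5-1. Besides COR15A, the positive members included NCED3 (AT3G14440), the rate-limiting enzyme of ABA synthesis, which rose from 3.57 ± 0.935 to 7.92 ± 0.491 FPKM in Col-0 and from 1.46 ± 0.0685 to 8.05 ± 0.238 FPKM in dcp5-1 (difference 0.90 ± 0.16). P5CS1 (AT2G39800), the rate-limiting enzyme of proline synthesis, overlapped between the times in Col-0 at 96.1, 94.6 and 93.4 FPKM and then 91.7, 96.8 and 93.3 FPKM. In dcp5-1 it rose from 38, 38.1 and 36.4 FPKM to 52.3, 51.9 and 53.7 FPKM without reaching the wild type (difference 0.49 ± 0.056, adjusted p = 2.83e-06). KIN1 (AT5G15960), a cold- and ABA-induced protein, fell in Col-0 and rose in dcp5-1, and the phosphatase gene HAI1 (AT5G59220), an inhibitor of ABA signalling, fell in both, less in dcp5-1 (differences 0.80 ± 0.17 and 0.95 ± 0.23). LTI78 (AT5G52310), known too as RD29A and much used as a reporter of osmotic stress, rose from 12.3, 10.1 and 13.6 FPKM to 58, 63.4 and 58.9 FPKM in Col-0 and from 10.3, 10.6 and 9.66 FPKM to 39.7, 37 and 36.4 FPKM in dcp5-1 (difference -0.45 ± 0.11, adjusted p = 0.00485). None of 7 genes of sodium transport and osmosensing had a called difference (limma), nor an unadjusted p under 0.05. SOS1 (AT2G01980), the plasma membrane sodium exporter, had the smallest unadjusted p, 0.112 with a difference of 0.20 ± 0.12, and the vacuolar exchanger NHX1 stood at 0.01 ± 0.083.

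Among 42 rapidly inducible stress regulators 21 (50.0%) had a positive difference and 4 (9.52%) a negative one, against 16.9% and 8.34% of all genes. The median was 0.39 (-0.02 under nuclear FPKM-sum scaling), the median response being -0.49 in Col-0 and -0.28 in dcp5-1. CBF2 (AT4G25470), a cold-response activator with close copies beside it, overlapped between the times in Col-0 at 37.2, 50.0 and 39.8 FPKM and 45.9, 41.6 and 39.3 FPKM. In dcp5-1 it rose from 11.4, 14.4 and 13.1 FPKM to 31.2, 34.1 and 34.9 FPKM, still below all Col-0 libraries (difference 1.3 ± 0.12, adjusted p = 2.88e-07). WRKY33 (AT2G38470), a defence regulator, had the same form: 49.6, 43.4 and 49.9 FPKM and 48.6, 52.2 and 48.6 FPKM in Col-0, and a rise from 16.5, 16.7 and 18.7 FPKM to 40.2, 39.7 and 38.4 FPKM in dcp5-1 (difference 1.08 ± 0.088, adjusted p = 3.18e-08). The zinc finger genes STZ (AT1G27730), linked to salt tolerance, and SZF1 (AT3G55980) fell in both and further in Col-0. STZ went from 122 ± 7.22 to 42.8 ± 2.35 FPKM in Col-0 and from 75.7 ± 2.34 to 47.1 ± 2.46 FPKM in dcp5-1, with differences of 0.81 ± 0.086 and 0.81 ± 0.085 for the pair. The 4 negative members were all of jasmonate signalling, the activator gene MYC2 and the repressor genes JAZ1, JAZ5 and JAZ10, while the repressor gene JAZ8 was positive (0.89 ± 0.14). JAZ10 (AT5G13220) overlapped between the times in Col-0, at 27.7, 30.4 and 28.7 FPKM and 31.1, 29.7 and 27.5 FPKM, and fell in dcp5-1 from 31.8, 34 and 34 FPKM to 22.7, 23.5 and 25 FPKM (difference -0.50 ± 0.084, adjusted p = 0.00018).

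Promoter windows of 4 genes with a positive difference are shown because they hold the G-box, the core of many ABA-responsive elements, the motif searched whose share in the most positive genes was, as a ratio, furthest above that in all genes. These 4 were chosen after the shares had been seen. Each window is the 250 bases before the annotated start, 5′ to 3′ on the gene's strand, from the RefSeq TAIR10.1 genome, with the G-box in capitals: MSRB5 at chr4:2445525-2445774 (plus strand), COR15A at chr2:17712291-17712540 (minus strand), LEA7 at chr1:19619495-19619744 (plus strand) and CBF2 at chr4:13016236-13016485 (minus strand).
MSRB5: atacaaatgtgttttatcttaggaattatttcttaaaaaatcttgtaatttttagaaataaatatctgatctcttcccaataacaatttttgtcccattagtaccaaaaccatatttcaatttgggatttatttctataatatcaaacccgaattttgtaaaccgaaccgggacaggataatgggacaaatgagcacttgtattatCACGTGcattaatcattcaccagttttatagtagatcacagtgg
COR15A: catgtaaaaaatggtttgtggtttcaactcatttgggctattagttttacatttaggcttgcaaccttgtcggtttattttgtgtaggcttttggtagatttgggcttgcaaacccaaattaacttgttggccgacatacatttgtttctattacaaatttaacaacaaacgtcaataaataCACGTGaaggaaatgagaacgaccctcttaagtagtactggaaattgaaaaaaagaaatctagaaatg
LEA7: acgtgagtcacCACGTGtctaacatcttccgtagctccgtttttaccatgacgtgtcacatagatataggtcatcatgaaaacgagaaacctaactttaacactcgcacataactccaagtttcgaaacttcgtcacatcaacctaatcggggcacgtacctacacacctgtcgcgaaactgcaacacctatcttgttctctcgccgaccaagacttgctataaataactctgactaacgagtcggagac
CBF2: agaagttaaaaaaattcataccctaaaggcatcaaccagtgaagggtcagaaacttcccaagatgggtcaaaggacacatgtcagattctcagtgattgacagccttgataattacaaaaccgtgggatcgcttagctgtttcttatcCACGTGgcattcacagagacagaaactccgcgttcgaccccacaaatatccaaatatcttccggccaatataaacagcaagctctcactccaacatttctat

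The G-box (CACGTG) was found in 32 of 202 windows of genes with a positive difference of at least 2-fold (15.8%) and in 306 of 3415 of all positive genes (8.96%). It was found in 129 of 1689 windows of negative genes (7.64%) and in 1479 of 19444 windows of all tested nuclear protein-coding genes (7.61%). The ABA-responsive core (ACGTG), which lies inside the G-box, was in 36.1%, 27.8%, 23% and 24% of these 4 sets. The drought-responsive core (CCGAC) was in 8.91%, 12.7%, 12.5% and 13.2%, and the rapid stress response element (CGCGTT) in 3.47%, 3.25%, 3.08% and 2.95%. The W-box core (TTGAC), the telo box (AAACCCTA), the site II element (TGGGCC) and the TATA box (TATAAA) were in 44.8%, 3.7%, 16.7% and 46.2% of all windows and in 45.9%, 3.87%, 17.3% and 47.4% of those of positive genes. Their shares were 43.6%, 2.48%, 12.4% and 52.5% where the positive difference was at least 2-fold. In windows of negative genes they were 45.2%, 3.43%, 16.9% and 45.9%. Both strands were searched, and a match is a description of the letters only. In COR15A the G-box began 68 bases before the start, in MSRB5 44, in CBF2 102 and in LEA7 239, and CBF2 also held the rapid stress response element, 74 bases before its start.

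Of 45 nuclear photosynthesis genes 37 (82.2%) had a positive difference and none a negative one in limma (0 at an unadjusted p under 0.05), against 16.9% and 8.34% of all genes. The median was 0.48 (0.06 under nuclear FPKM-sum scaling), and the median response was -0.17 in Col-0 and 0.27 in dcp5-1. FBA1 (AT2G21330), a chloroplast fructose-bisphosphate aldolase of the Calvin cycle, fell in Col-0 from 762, 1059 and 853 FPKM to 715, 686 and 692 FPKM. It rose in dcp5-1 from 472, 497 and 468 FPKM to 878, 939 and 996 FPKM (difference 1.31 ± 0.11, adjusted p = 7.52e-08). Phosphoribulokinase PRK (AT1G32060), of the same cycle, rose in Col-0 from 374, 395 and 384 FPKM to 592, 586 and 607 FPKM and in dcp5-1 from 238, 237 and 245 FPKM to 607, 597 and 578 FPKM. The mutant began below the wild type and met it at T15 (difference 0.68 ± 0.055, adjusted p = 3.18e-08). The Rubisco small subunit gene RBCS2B and the antenna gene CAB3, both with near-identical copies, had differences of 0.86 ± 0.13 and 1.00 ± 0.12, and RBCS1A was listed at 0 in every library. The summed level of the 45 genes was 173000 to 215000 FPKM in Col-0 at T0, 146000 to 152000 FPKM at T15, 113000 to 116000 FPKM in dcp5-1 at T0 and 123000 to 132000 FPKM at T15. Of 66 chloroplast-encoded genes none was positive (4 at an unadjusted p under 0.05) and 3 (4.55%) were negative in limma. The differences of these 66 genes ran from -6.98 to 10.43. Their summed level ran from 3800000 to 7630000 FPKM between the Col-0 libraries at T0. With that spread, the few calls do not show that these genes lack a difference.

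Of 35 messengers of cytosolic ribosomal proteins, 30 fell and none rose in Col-0, while 29 fell and 3 rose in dcp5-1. The falls were deeper in Col-0: 23 (65.7%) had a positive difference and none a negative one (0 at an unadjusted p under 0.05), with a median of 0.35 (-0.08 under nuclear FPKM-sum scaling) and median responses of -0.89 and -0.47. RPS15A (AT1G07770), of the small subunit, fell from 922, 1239.6 and 960.3 FPKM to 200.2, 181 and 185 FPKM in Col-0 and from 958, 936 and 944 FPKM to 297, 273 and 312 FPKM in dcp5-1. The T0 groups of the genotypes overlapped and the T15 groups did not (difference 0.76 ± 0.11, adjusted p = 2.83e-05). AT4G14320, a zinc-binding ribosomal protein, fell from 1587 ± 222 to 541 ± 18.9 FPKM in Col-0 and from 1354 ± 44.7 to 816 ± 12.3 FPKM in dcp5-1 (difference 0.81 ± 0.10, adjusted p = 1.01e-05). Of 13 translation factors 5 (38.5%) were positive and none negative (4 at an unadjusted p under 0.05), against 16.9% and 8.34% of all genes. The median of these factors was 0.02 (-0.20 with 2 positive and 7 negative under nuclear-fragment scaling, -0.38 under nuclear FPKM-sum scaling). The elongation factor gene AT5G60390, which has near-identical copies, overlapped between the times in Col-0 at 852 ± 183 and 959 ± 52.9 FPKM and rose in dcp5-1 from 545 ± 20.6 to 968 ± 53.8 FPKM (difference 0.63 ± 0.13).

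Of 30 decapping and decay genes 4 (13.3%) had a positive difference and 7 (23.3%) a negative one, against 16.9% and 8.34% of all genes, and 1 and 16 under nuclear-fragment scaling, with a median of -0.09 (-0.30 and -0.49 under the nuclear-fragment and nuclear FPKM-sum scalings), and 21 rose and 6 fell in each genotype. The deadenylase gene CAF1a (AT3G44260), whose product shortens poly(A) tails, fell from 219, 275 and 247 FPKM to 59.8, 53.3 and 52.7 FPKM in Col-0 and from 164, 177 and 168 FPKM to 60.6, 63.5 and 65.5 FPKM in dcp5-1. The mutant was lower at T0 and ended slightly higher (difference 0.73 ± 0.093, adjusted p = 9.18e-06). DCP1 (AT1G08370), the partner of DCP2, was positive at 0.32 ± 0.093, and DCP2 itself at 0.18 ± 0.094 was not called. XRN4 (AT1G54490) rose from 7.65 ± 0.631 to 14.2 ± 0.624 FPKM in Col-0 and from 7.18 ± 0.442 to 10.5 ± 0.264 FPKM in dcp5-1 (difference -0.32 ± 0.093, adjusted p = 0.0158). The ribonuclease II family gene AT1G77680 rose from 6.5 ± 0.391 to 12.9 ± 0.513 FPKM in Col-0 and from 7.19 ± 0.0969 to 11.1 ± 0.509 FPKM in dcp5-1 (difference -0.32 ± 0.077), a call that ended with the length trend removed (-0.16, adjusted p = 0.153). Among 15 stress granule RNA-binding proteins 3 (20.0%) were positive, near the 16.9% of all genes, and 3 (20.0%) negative, against 8.34%. Under nuclear-fragment scaling 2 were positive and 8 negative. The group median was 0.02 (-0.21 under that scaling and -0.39 under nuclear FPKM-sum scaling). RBP47B (AT3G19130) rose in Col-0 from 39.6, 37.5 and 42.3 FPKM to 71.4, 73.1 and 73.7 FPKM and in dcp5-1 from 40.1, 39.2 and 39.8 FPKM to 53.6, 52.1 and 56.5 FPKM, where the T15 groups parted (-0.42 ± 0.063, adjusted p = 4.95e-05).

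Heat shock and unfolded protein genes had the lowest median of the 17 groups, -0.18 (-0.55 under nuclear FPKM-sum scaling). Of 20 tested, 4 (20.0%) were positive, near the 16.9% of all genes, and 8 (40.0%) negative, against 8.34%. HSP90.1 (AT5G52640), a heat-inducible cytosolic chaperone, stood at 3.33, 4.17 and 4.09 FPKM in Col-0 at T0 and 2.52, 2.92 and 2.73 FPKM at T15, and in dcp5-1 at 36.1, 31.8 and 36.1 FPKM and 17.9, 15.8 and 16.4 FPKM. The mutant exceeded the wild type at both times and fell further (difference -0.63 ± 0.12, adjusted p = 0.000528). HSP17.6A (AT5G12030), a small chaperone, fell from 4.91, 5.06 and 6.23 FPKM to 1.71, 2.74 and 2.04 FPKM in Col-0 and from 44.8, 42.6 and 40.5 FPKM to 12, 12.5 and 12.1 FPKM in dcp5-1. The ratios of the means were 0.401 and 0.286, with a difference of -0.70 ± 0.15 on the log2(FPKM + 1) scale, on which the added 1 shrinks the change of the low Col-0 levels more. With a pseudocount of 0.1 the call ended (-0.50, adjusted p = 0.0637). AT3G09440, of the HSP70 family, rose in Col-0 from 8.7, 13.3 and 10.5 FPKM to 17.4, 15.5 and 16.9 FPKM and fell in dcp5-1 from 39.4, 41.6 and 39 FPKM to 28.1, 32 and 28 FPKM (difference -1.02 ± 0.13, adjusted p = 5.94e-06). The constitutive chaperone HSC70-1 was positive at 0.54 ± 0.13, with Col-0 T0 libraries spread from 339.7 to 513 FPKM.

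**Figure D3:**
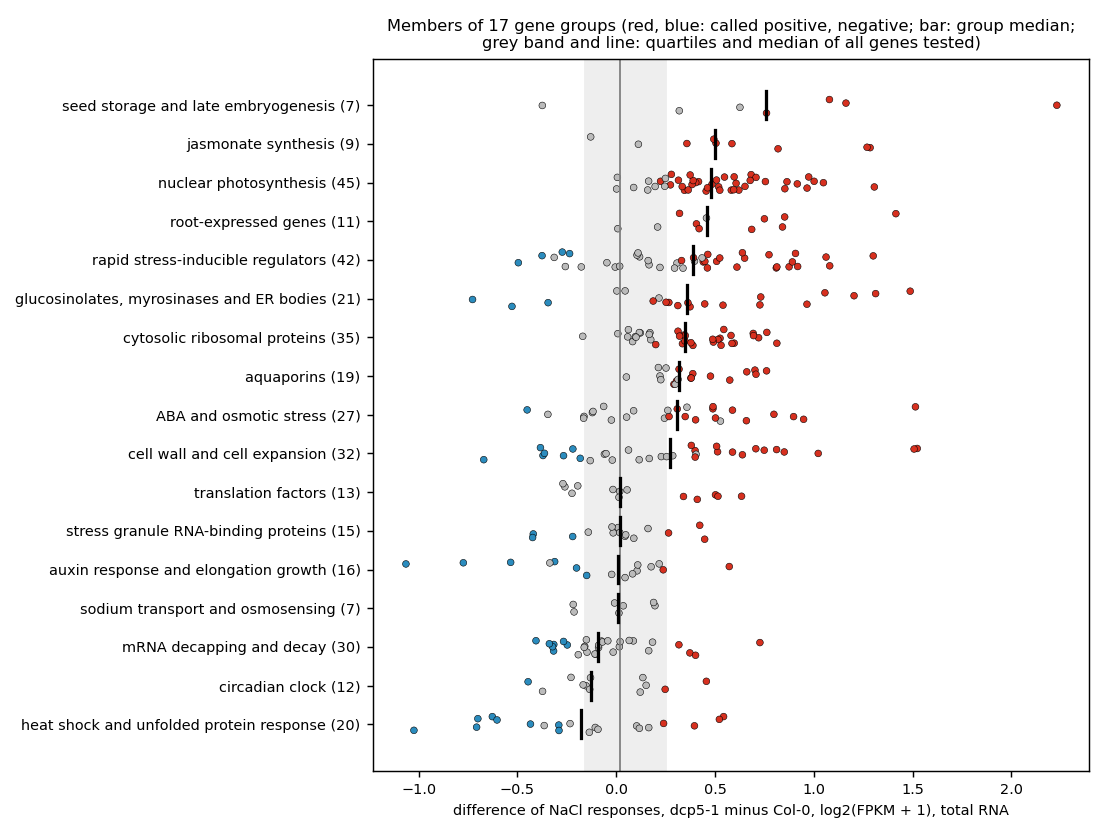
Difference of responses (dcp5-1 minus Col-0, log2(FPKM + 1), x axis) of each tested member of 17 gene groups, with the number of members in parentheses, bars at group medians and points coloured where called. The grey band spans the quartiles of all genes, -0.16 to 0.25. Photosynthesis (median 0.48) and jasmonate (median 0.50) genes lie mostly to its right, and heat shock genes (median -0.18) have their median at its left edge.

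Of 19 aquaporins, which encode water channels, 12 (63.2%) were positive and none negative (0 at an unadjusted p under 0.05). Of all genes 16.9% were positive and 8.34% negative. The aquaporin median was 0.32 (-0.10 under nuclear FPKM-sum scaling), and 18 aquaporins fell in Col-0 against 8 in dcp5-1. TIP2;3 (AT5G47450), of the vacuolar membrane, stood at 77.3, 112 and 94.9 FPKM and then 55.8, 53.4 and 50.8 FPKM in Col-0. In dcp5-1 it overlapped between the times, at 61.6, 58.8 and 64.4 and 58.7, 55.3 and 59.1 FPKM (difference 0.71 ± 0.12, adjusted p = 0.0002). Of 11 tested root-expressed genes 9 fell in Col-0 and 6 in dcp5-1, and 8 (72.7%) were positive and none negative (0 at an unadjusted p under 0.05; median 0.46, 0.26 under nuclear FPKM-sum scaling). Their summed level was 140 to 152 FPKM in Col-0 at T0, 94.3 to 102 FPKM at T15, 120 to 131 FPKM in dcp5-1 at T0 and 125 to 126 FPKM at T15, and the nitrate transporter NRT2.1 stayed at or near 0. PHT1;1 (AT5G43350), a root phosphate transporter, fell from 18.8, 21 and 20.5 FPKM to 9.43, 9.9 and 8.86 FPKM in Col-0 and from 17.2, 16.3 and 16.7 FPKM to 13.3, 13.7 and 14.1 FPKM in dcp5-1 (difference 0.75 ± 0.085). The part of root content in the aquaporin values and in those of IRT1 was not tested.

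Of 7 tested seed genes 5 fell and 1 rose in Col-0, and 1 fell and 2 rose in dcp5-1. OLEO2 (AT5G40420), an oil body protein, stood in Col-0 at 14.8, 17.9 and 16.5 FPKM and then at 6.32, 7.69 and 5.96 FPKM, and in dcp5-1 at 0.753, 0.726 and 0.896 FPKM and then at 2.36, 2.3 and 3.54 FPKM. It fell in one genotype and rose in the other, with a difference of 2.23 ± 0.16 (adjusted p = 4.4e-09), and at T0 the mutant held 4.83% of the Col-0 mean. GEA6 (AT2G40170), a late embryogenesis protein, fell in Col-0 from 17.3 ± 3.44 to 9.06 ± 0.513 FPKM and was not called in dcp5-1, at 3.06 ± 0.251 and 3.78 ± 0.439 FPKM (difference 1.08 ± 0.19, adjusted p = 0.000248). Of the 7, 4 (57.1%) were positive and none negative (0 at an unadjusted p under 0.05), against 16.9% and 8.34% of all genes. The median of the 7 was 0.76 (0.62 under nuclear FPKM-sum scaling). Their sum was 38.9 to 49.8 FPKM in Col-0 at T0, 20.3 to 24.5 FPKM at T15, 9.1 to 11 FPKM in dcp5-1 at T0 and 12.1 to 15.2 FPKM at T15. The other 5 listed seed genes, among them the storage protein genes CRU2 and CRU3, did not reach 1 FPKM in 3 libraries and were at or near 0.

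Of 32 genes of the cell wall and cell expansion 14 (43.8%) were positive and 7 (21.9%) negative, against 16.9% and 8.34% of all genes. Arabinogalactan genes such as AGP24 (1.02 ± 0.14) were among the positive ones, and the group median was 0.27 (-0.13 under nuclear FPKM-sum scaling). XTH19 (AT4G30290), a wall-loosening enzyme, fell in Col-0 from 74.8 ± 4.02 to 53.3 ± 1.45 FPKM and in dcp5-1 from 49.3 ± 1.68 to 26.9 ± 0.789 FPKM (difference -0.37 ± 0.067, adjusted p = 0.000337). Of 16 auxin response genes 2 (12.5%) were positive and 6 (37.5%) negative (median 0.01, -0.22 and -0.41 under the nuclear-fragment and nuclear FPKM-sum scalings). IAA29 (AT4G32280), an auxin-induced repressor, rose in Col-0 from 3.05, 2.91 and 3.68 FPKM to 10.0, 10.7 and 10.2 FPKM. In dcp5-1 it overlapped between the times, at 2.64, 2.13 and 1.99 FPKM and 3.76, 2.07 and 3.9 FPKM, with a response of 0.36 ± 0.14 (adjusted p = 0.0361) (difference -1.06 ± 0.20, adjusted p = 0.000528). AXR3 (AT1G04250), of the same family, fell in both, in Col-0 from 139.7 ± 11.6 to 80.6 ± 1.26 FPKM and in dcp5-1 from 98.1 ± 3.15 to 84.6 ± 1.26 FPKM (difference 0.57 ± 0.069). Of 12 clock genes 2 (16.7%) were positive and 1 (8.33%) negative, close to the 16.9% and 8.34% of all genes, and 0 and 2 under nuclear-fragment scaling (median -0.13, -0.32 and -0.46 under those scalings). CCA1 (AT2G46830), a morning regulator, rose by 0.16 in Col-0 and by 0.62 in dcp5-1, from 71.6, 73.3 and 68.7 FPKM to 115, 110.4 and 105 FPKM (difference 0.46 ± 0.067, adjusted p = 4.56e-05), a call that ended under nuclear-fragment scaling (0.23, adjusted p = 0.069). So did that of LHY (AT1G01060).

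Under nuclear-fragment scaling, which lowered the median of all genes to -0.17, the counts of positive and negative members moved for most groups. Photosynthesis genes then had 28 positive and 3 negative of 45 members, and ribosomal protein genes 13 and 4 of 35. Rapid regulators had 16 and 6 of 42, and ABA and osmotic stress genes 8 and 5 of 27. Glucosinolate genes had 8 and 3 of 21, jasmonate genes 6 and 1 of 9, and cell wall genes 11 and 11 of 32. Heat shock genes had 2 and 10 of 20, root genes 5 and 0 of 11, and aquaporins 6 and 0 of 19. Seed genes had 4 and 0 of 7 as before. Decapping and decay genes had 1 and 16 of 30, and stress granule genes 2 and 8 of 15. Translation factors had 2 and 7 of 13, auxin genes 1 and 8 of 16, and clock genes 0 and 2 of 12. Sodium transport genes had 0 and 1 of 7. Member counts are to be read beside those of all 20964 genes, 1774 positive and 5690 negative under this scaling. Of the called genes 23.8% were then positive, against 66.9% on the deposited scale.

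The difference of responses went with transcript length. Over 19445 protein-coding genes of the nucleus with transcripts from 300 nt up, its rank correlation with length was -0.4, given as a description since genes are not independent and share the same 12 libraries. A trend on length and GC content held 19.1% of its variance. In the shortest of 10 classes of about equal size (300 to 876 nt) the median difference was 0.36 and 38.3% of genes were positive, while in the longest class (at least 3059 nt) it was -0.17 and 23.3% were negative. Col-0 and dcp5-1 responses in the shortest class had medians of -0.71 and -0.38, and in the longest class 0.4 and 0.23. In polysomal RNA the median difference lay between 0 and 0.02 in all 10 classes. With the trend on length and GC removed from each library, 2509 of 19445 genes were positive and 1889 negative. Of the called genes 57.0% were then positive. Of the groups above, photosynthesis then had 30 positive of 45 members, jasmonate 7 of 9 and root genes 5 of 11. Decapping and decay genes had 4 positive and 3 negative of 30. Ribosomal proteins, of a median length of 1115 nt, had 16 positive and 2 negative of 35. ECS1, at 868 nt, stood at 1.65 after removal, MT1C, at 577 nt, at 1.02, and BGLU18, at 2134 nt, at 1.56.

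**Figure D4:**
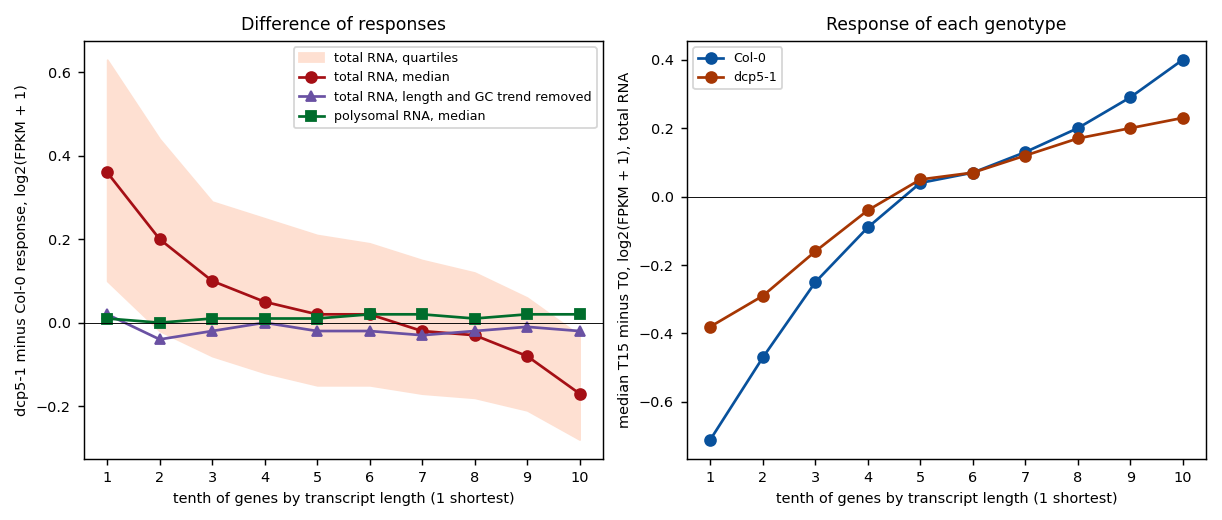
Medians over 10 classes of about equal size among 19445 genes ordered by transcript length (x axis, 1 shortest). Left, the difference of responses on the log2(FPKM + 1) scale falls from 0.36 to -0.17 in total RNA (circles, band of quartiles), is near 0 with the trend removed (triangles) and near 0 in polysomal RNA (squares). Right, the response of each genotype rises with length, from -0.71 to 0.4 in Col-0 and from -0.38 to 0.23 in dcp5-1.

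The same difference of responses was set beside its value in polysomal RNA, the RNA on ribosomes. The difference in total RNA minus that in polysomal RNA was called for 1311 genes (6.25%), positive for 902 (4.3%) and negative for 409 (1.95%). Neither the labels nor the columns tie a total RNA library to a polysomal one. MT1C was positive in total RNA (1.48 ± 0.11) but not called in polysomal RNA (0.33 ± 0.11), and the fractions differed by 1.14 ± 0.16 (adjusted p = 0.000445). RPS15A (0.76 against 0.05), AGP14 (1.51 against 0.38), MIR163 (1.48 against -0.20) and FBA1 (1.31 against 0.53) differed between fractions in the same direction (adjusted p = 0.00821, 0.0039, 0.00616 and 0.00709). NIA1 was negative in total RNA (-0.61 ± 0.053) and not called in polysomal RNA (-0.07 ± 0.053), and the fractions differed by -0.54 ± 0.075 (adjusted p = 0.000474). VSP2, LHY and MIOX2 lay further from 0 in polysomal RNA: 1.75 ± 0.070 for VSP2, 0.67 ± 0.060 for the clock gene LHY and -1.06 ± 0.070 for MIOX2, against 1.27 ± 0.070, 0.25 ± 0.060 and -0.66 ± 0.070 in total RNA (adjusted p of the fraction difference 0.00658, 0.00608 and 0.0199). The total RNA value of LHY was not called under nuclear-fragment scaling (0.0194, adjusted p = 0.858) and turned to -0.1691 under nuclear FPKM-sum scaling. For ECS1, LEA7, COR15A, CBF2, WRKY33, AOC2, MAM1, IRT1 and MYB28 the difference between fractions was not called, and polysomal values were 1.47, 0.94, 1.02, 1.02, 0.87, 1.12, 1.19, 1.57 and -0.65. For DCP5 the polysomal value was 0.08 ± 0.059, and the fractions differed by -0.33 ± 0.083 (adjusted p = 0.023). The column numbers 0 to 2 name the libraries of a group: without Col-0 T0 library 0 the positive count was 1533, and without dcp5-1 T15 library 2 the negative count was 263.

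**Figure D5:**
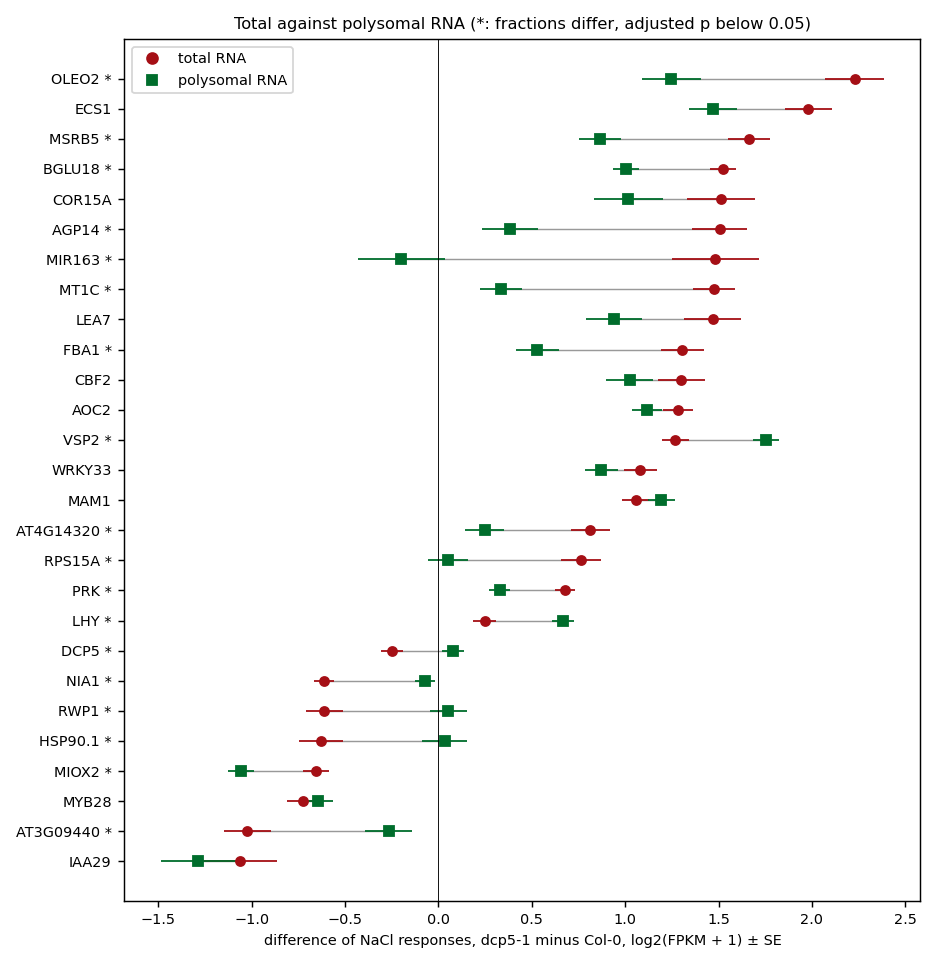
Difference of responses (dcp5-1 minus Col-0, log2(FPKM + 1) with SE, x axis) of 27 named genes in total RNA (circles) and polysomal RNA (squares), ordered by the value in total RNA. Stars mark genes whose fractions differ at an adjusted p below 0.05, such as MT1C (1.48 and 0.33) and NIA1 (-0.61 and -0.07), while ECS1 and COR15A carry none.

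Annotated neighbours on the opposite strand overlap AIR1, BCAT4, BCAT-2, UMAMIT33, RWP1, WRKY33, JAZ10, PRK, OLEO2, AT5G60390 and AT3G09440, and whether fragments were counted by strand is not given in the sources used here, so reads of such partners may be included in their values.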

How the data were processed

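One deposited table of 38088 genes and 24 columns was used. The table does not define its column codes. They were read as Col-0 (W) or dcp5-1 (d), T0 or T15 and, with the suffix IP, polysomal RNA, to match the groups in the labels' titles. The deposited values are FPKM made by the authors. This unit was inferred from the values, and Bowtie and TAIR10 are named per the submitters' processing notes. The tool that made the FPKM, the annotation, the scaling and the strand setting remain unstated: not given in the sources used here. Symbols, lengths, positions and promoters came from RefSeq TAIR10.1, which matched 99.2% of IDs.

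Genes of at least 1 FPKM in 3 libraries (20964, 55.0%) were fitted as log2(FPKM + 1) with limma 3.58.1 (trend, robust) in R 4.3.3, with 8 group means over 24 libraries and 16 residual degrees of freedom. The 4 comparisons were the response of each genotype, their difference, and that difference in total against polysomal RNA. The difference in polysomal RNA alone was fitted too, for the values and calls set beside those of total RNA. Named genes were DCP5, the 12 largest positive and negative differences (nuclear, with a symbol, at least 300 nt, mean of at least 10 FPKM), the 3 largest each way among genes called in opposite directions, and up to 2 members of smallest p per list and direction. Other list members named for their role were chosen after their values were seen. The comparison and the 17 lists were chosen with earlier results of these data known. Depth was the value found by a search to match the spacing of low values best. At it 30.9 to 33.3% of them lay within 0.1 of a whole fragment. The share without spacing is 20% at a depth not chosen by such a search, so the depth is approximate. The fit of the difference was tested on simulated data. Alternatives were another pseudocount, filters, scalings, a fold threshold, a total-only fit, a column-number block, removal of a length and GC trend and leaving out each library. Python 3.11.15 was used for tables.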

Additional observations from a re-analysis of the deposited data

Results flagged for a closer look

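The responses of the genotypes differed, by the test of the difference itself, for 3535 genes in the positive and 1748 in the negative direction. The difference was more positive in total than in polysomal RNA for 902 genes and more negative for 409.

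The 12 largest positive differences on the log2(FPKM + 1) scale were those of ECS1 (1.98), MSRB5 (1.66), BGLU18 (1.52), AGP13 (1.52), COR15A (1.51), AGP14 (1.51), AIR1 (1.5), BCAT4 (1.49), MIR163 (1.48), MT1C (1.48), LEA7 (1.47) and IRT1 (1.415). All 12 kept their call when any 1 total RNA library was left out.

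The 12 largest negative differences were those of CRF10 (-0.83), BCAT-2 (-0.82), MYB28 (-0.73), HSP17.6A (-0.70), PPAN (-0.67), ARGOS (-0.67), MIOX2 (-0.66), UMAMIT33 (-0.64), GSTF7 (-0.63), HSP90.1 (-0.63), RWP1 (-0.61) and NIA1 (-0.61). These 12 also kept their call in each of those fits, though HSP17.6A lost it with a pseudocount of 0.1. None of these 12 passed a test against a fold of 1.5, nor did MIR163 or IRT1 among the positive ones, and scaling to the sum of nuclear FPKM ended the calls of all 24. Both sets hold under the conditions on symbol, length and level given for the named genes.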

How the results depend on the processing

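Counts are given as positive and negative calls, for the difference of responses (3535 and 1748), the Col-0 response (6963 and 6800), the dcp5-1 response (6070 and 5614) and total against polysomal RNA (902 and 409). Scaling to the sum of nuclear FPKM gave 4 and 2, 9305 and 654, 994 and 239, and 0 and 1, and reversed AT5G58620 (-0.009), SHY2 (-0.1818) and LHY (-0.1691). The share of genes under 300 nt in that sum varied from 13.4 to 66.9% between libraries. Scaling to nuclear fragments, added after seeing the data, gave 1774 and 5690 for the difference, 10423 and 4473 for Col-0 and 628 negative calls for the fractions. A test against a fold of 1.5 gave 77 and 0, 725 and 2094, 565 and 795, and 1 and 0. A mean of at least 10 FPKM left 1086 negative differences, 3365 positive Col-0 and 3371 positive dcp5-1 responses, with fewer genes tested. Removing the length and GC trend left 381 and 262 calls between fractions. The cause of the other shifts was not tested. A pseudocount of 0.1 ended the calls of HSP17.6A and PRR9. That pseudocount, no filter and median-of-ratios scaling moved no count by over 1.5 times, nor did the fit of 12 libraries, which gives no value for polysomal RNA. Median-of-ratios factors were 0.9919 to 1.009 in total RNA. That scaling left the values almost as deposited, so its like counts cannot show that calls are independent of scaling.

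Within total RNA the column numbers do not pair the libraries (same-number correlations of -0.17 to 0.15). Pairing with polysomal libraries was not checked. A replicate block on the column numbers gave 3524 and 1676, 6936 and 6777, 6016 and 5582, and 854 and 357. Leaving out 1 library gave 2938 to 4047 and 1245 to 1930, 6487 to 6950 and 6410 to 6785, 5528 to 6201 and 5101 to 5779, and 636 to 1533 and 263 to 570. Of 64 named genes 63 kept their call in all 12 such fits, and PRR9 lost it in 7. The nuclear FPKM-sum scaling ended the calls of the other 61, nuclear fragments ended 4, removal of the trend 2 and the fold of 1.5 ended 47. Depth and 3 libraries a group limit small differences of low genes, which the scale can understate or overstate.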
